A study of Homo sapiens with 30 samples.

Results

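A set of 6 genes of the aryl hydrocarbon receptor pathway is described here in human breast cancer cells recovered from mouse organs: CYP1B1, CYP1A1, AHR, AHRR, ARNT and TIPARP. They are 6 of the 38526 genes counted in the first experiment and of the 36291 counted in a retransplantation experiment, and both tables hold all 6. CYP1B1 was chosen by its measured values, because it was low in liver metastases and high in primary tumours and lung metastases of the first experiment. Its differences from liver in that experiment are therefore a description and carry no test. The other members were selected as genes of the same pathway, with earlier results of these data known.

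MDA-MB-231 is an established human breast cancer line of the triple-negative type. Cells of the line carrying LeGO barcodes had been grown in NOD-SCID-IL2Rγc−/− (NSG) mice, which lack mature lymphocytes, and 2 subclones, named 2 and 13, were sorted again from the organs of those animals. The first experiment held 6 groups, subclone 2 and subclone 13 each in primary tumour, lung metastasis and liver metastasis, from the same 3 mice (mice 1 to 3, n = 3 per group). Retransplanted subclone 2 formed 2 further groups, labelled lung and liver metastasis, from mice 4 to 6 (n = 3 per group). Those labels do not state whether the organ is where the retransplanted cells came from or where they grew. Ages, times after transplantation and any treatment are not given in the sources used here. Each subclone is a single barcoded clone, so a difference between subclones compares 2 clones, and no group of cells grown outside a mouse was analysed here.

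The aryl hydrocarbon receptor, encoded by AHR, is a ligand-activated transcription factor that waits in the cytoplasm bound to HSP90 and co-chaperones. Ligands such as dioxins, polycyclic aromatic hydrocarbons and tryptophan metabolites send it to the nucleus, where it pairs with the protein of ARNT and binds the core motif GCGTG near its targets. CYP1A1 and CYP1B1, enzymes that oxidise such ligands and oestradiol, are classical targets, and CYP1B1 is the family member best known from breast and other extrahepatic tissue. AHRR, which competes with the receptor for ARNT, and TIPARP, an ADP-ribosyltransferase that acts on the receptor, are induced by it and restrain it.

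The motif is shown because it is the core that the receptor binds. Whether all target genes among the members share it was not examined. RefSeq promoter windows (GRCh38.p14, 250 bases before an annotated start) were searched for GCGTG and for CACGC, its reverse complement. GCGTG is also one form of the core of the hypoxia response element, so a match does not tell these motifs apart. CYP1A1 had 1 start with 1 match, TIPARP 3 starts with 2 matches and AHRR 2 starts with 3 matches, while the single windows of AHR and of ARNT held none. No window was matched for CYP1B1. Of all 35116 windows 32.2% held at least 1 match and 10.1% at least 2. Those at the receptor's targets are printed, apart from 1 AHRR match at the window's edge, on the strand of the gene, 5′ to 3′, with the core in capitals.
CYP1A1, chr15:74725569-74725597, minus strand, core 57 bases before the start: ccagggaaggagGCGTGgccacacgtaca
TIPARP, chr3:156674370-156674398, plus strand, core 208 bases before the start: cgcgagaaaggaCACGCcccctcgcggga
TIPARP, chr3:156674436-156674464, plus strand, core 142 bases before the start: cgaacgaacgcgCACGCgcgcgcaggggg
AHRR, chr5:321672-321700, plus strand, core 30 bases before the start: ggcgggcggctcGCGTGccggggtggggc
AHRR, chr5:322556-322584, plus strand, core 42 bases before the start: gcagaagggtggGCGTGtgcgcgcgttct
In GENCODE v29, whose gene models start elsewhere, the windows of CYP1A1 and TIPARP and the second window of AHRR overlap an exon of the same gene, and the first window of AHRR lies in an intron. A match is a string of letters and not a measured binding site.

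Levels are given as CPM, counts relative to library size after TMM scaling, which was done separately in each experiment. The 18 samples of the first experiment had 11.8 to 82.2 M (mega) counts and the 6 retransplanted samples 23.4 to 32.3 M. Of the markers of the line, those listed as high (VIM, CD44, MSN, AXL and CAV1) summed to 5132 to 14236 CPM in every sample. Those listed as low (ESR1, PGR, ERBB2, CDH1 and EPCAM) summed to 83.96 to 151 CPM. In the first experiment ESR1 reached at most 1.84 CPM, PGR 0.26 CPM and CDH1 4.83 CPM. ERBB2 ran from 66.96 to 98.6 CPM and EPCAM from 11.98 to 59.2 CPM there, so not all markers listed as low were near 0. Samples of mice 1, 2 and 3 came from different sequencing runs, so mouse and run cannot be told apart, and those of subclone 13 from mouse 1 were sequenced in all 3 runs. In these bulk samples fewer cells expressing a gene and less RNA per cell cannot be told apart either. Nothing in the labels says how separate the samples of 1 mouse are, so p-values measure the spread between these samples.

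In the first experiment CYP1B1 ran over the widest range of the members detected in every sample, highest in tumours, lower in lung and at a trace level in liver. CYP1B1 (ENSG00000138061, chromosome 2, 38066973 to 38109902, minus strand, GRCh38) encodes a cytochrome P450 that hydroxylates oestradiol and activates polycyclic hydrocarbons. In subclone 2 its level was 58.0, 70.9 and 212 CPM in the tumours of mice 1, 2 and 3, 18.9, 33.8 and 43.3 CPM in lung and 0.641, 3.20 and 0.363 CPM in liver. In subclone 13 it was 54.0, 28.9 and 143 CPM in tumours, 25.02, 9.69 and 23.8 CPM in lung and 0.203, 0.665 and 0.460 CPM in liver. Both tumours of mouse 3 were the highest of their group. Within each subclone the 3 organs did not overlap, and the order tumour, lung, liver held in 6 of 6 pairs of subclone and mouse. How many of all genes do so was not counted, and the gene was chosen for its low liver level, so this is a description.

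The group means of CYP1B1, from highest to lowest, were 114 ± 85.6 CPM (SD, n = 3) in subclone 2 tumours, 75.3 ± 59.9 CPM in subclone 13 tumours, 32.0 ± 12.3 CPM in subclone 2 lung, 19.5 ± 8.52 CPM in subclone 13 lung, 1.40 ± 1.57 CPM in subclone 2 liver and 0.443 ± 0.231 CPM in subclone 13 liver. Neighbours in this order overlapped except lung of subclone 13 and liver of subclone 2, which lay 9.69 CPM and more against 3.20 CPM and less. The liver values rest on few reads. Subclone 2 liver had 10, 257 and 21 counts in mice 1, 2 and 3, and subclone 13 liver had 12, 11 and 7. Exact Poisson limits (95%, counting error only) for the unscaled level ran from 0.275 to 1.05 CPM for subclone 2 liver of mouse 1 and from 3.15 to 4.03 CPM for that of mouse 2, so mouse 2 was higher than mouse 1 beyond counting error.

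**Figure D1:**
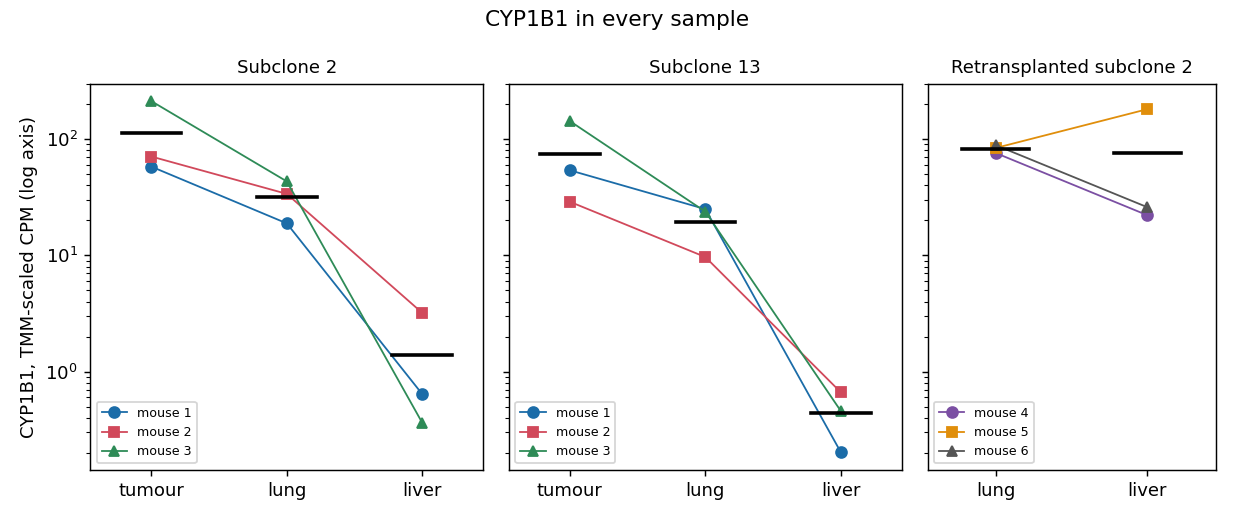
CYP1B1 level in TMM-scaled CPM (log axis) in each of the 24 samples by organ, with lines joining samples of 1 mouse and black bars at group means. In the first experiment every line falls from tumour to lung to liver, and in the retransplanted samples the liver of mouse 5 (181 CPM) stands above all others while those of mice 4 and 6 (22.2 and 26.0 CPM) lie below the lungs.

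The fitted change of CYP1B1 from tumour to liver was a log2 fold change of −6.25 ± 0.86 (SE) in subclone 2 and −7.59 ± 0.97 in subclone 13. By size these were number 14 and number 3 from the bottom among 17418 genes fitted, which describes how the gene was chosen. Between lung and liver the log2 fold change was 4.42 ± 0.80 in subclone 2 and 5.64 ± 0.92 in subclone 13. Within single mice the tumour level was 22.1 to 584 times the liver level and the lung level 10.6 to 123 times. As background for genes counted below, edgeR (quasi-likelihood F test, Benjamini-Hochberg adjusted p under 0.05) called 0.287% of genes in subclone 2 and 0.385% in subclone 13 between liver and tumour, and 0.023% and 0.0% between lung and liver. Nothing is read from these shares for CYP1B1, which was chosen on these comparisons.

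Lung metastases held less CYP1B1 than tumours of the same mouse in 6 of 6 pairs, by 2.10 to 6.01 times, but the difference did not pass the test across all genes. The log2 fold change from tumour to lung was −1.83 ± 0.70 in subclone 2 (adjusted p = 0.390, edgeR) and −1.95 ± 0.71 in subclone 13 (adjusted p = 0.385, edgeR), n = 3 mice each. Leaving out the tumour of mouse 3 brought it to −1.02 in subclone 2 and −1.05 in subclone 13. None of the 6 members was called in either comparison by edgeR or DESeq2, where edgeR called 0.436% and 0.419% of all genes. The unadjusted edgeR p of CYP1B1 was 0.0180 and 0.0131. With the mouse as a replicate block, adding what samples of 1 mouse share, the change was −1.72 ± 0.58 (adjusted p = 0.121, edgeR) and −1.73 ± 0.59 (adjusted p = 0.137), in fits that called 3.05% and 2.89% of all genes. Without the filter on low counts CYP1B1 did pass in both subclones (edgeR adjusted p = 5.99e-06 and 8.35e-07). The share of all genes that these unfiltered fits called is not given here, so the pass is a description.

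Differences in CYP1B1 between the subclones did not pass the test with the filter on low counts. In tumours subclone 13 was lower in 3 of 3 mice, with a log2 fold change of −0.60 ± 0.68 (adjusted p = 1.0, edgeR) that turned to 0.23 without the subclone 2 tumour of mouse 3. In lung it was lower in 2 of 3 mice (−0.71 ± 0.69, adjusted p = 1.0, edgeR). In liver it was lower in 2 of 3 mice (−1.93 ± 0.89, adjusted p = 0.661, edgeR), and without subclone 2 liver of mouse 2 the difference was −0.25 ± 0.92. Without the filter on low counts the liver difference passed at −1.92 (edgeR adjusted p = 0.000593), in a fit whose share of called genes is not given here. With the filter no member was called between the subclones, where 0.109% of genes were called in tumours, 0.184% in lung and 0.247% in liver. For the difference between lung and tumour, subclone 13 minus subclone 2 was −0.12 ± 0.96 (edgeR adjusted p = 1.0), in a test that called 0.0% of genes, and DESeq2 called 0 there. The differences from liver on which CYP1B1 was chosen differed between the subclones by −1.34 ± 1.12 for liver against tumour and 1.22 ± 1.12 for lung against liver, given as a description with no test. A p above the threshold does not show that the subclones are alike.

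Tumours varied more in CYP1B1 than in most genes. Its coefficient of variation between the 3 mice was 75.2% in subclone 2 tumours and 79.6% in subclone 13 tumours, above 98.7% and 99.5% of genes with a mean of at least 5 CPM. In lung it was 38.5% and 43.7%, against medians over genes of 23.7% and 23.3%. The 3 libraries of subclone 13 of mouse 1, which repeat 1 sample across runs 1, 2 and 3, gave 48.0, 51.0 and 49.9 CPM in tumour and 22.9, 22.2 and 20.9 CPM of the library total in lung. In liver they gave 0.918, 0.0584 and 0.315 CPM from 6, 3 and 3 counts, a wider range between runs of 1 sample than between the 3 mice.

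An antisense transcript followed CYP1B1. CYP1B1-AS1 lies on the opposite strand, the kit used does not keep the strand, and the exons of both genes share 678 bases (11.3% of the CYP1B1 exon length), so their reads there cannot be told apart. Its level was 1.73, 1.40 and 5.67 CPM in subclone 2 tumours and 0.324, 0.819 and 3.10 CPM in subclone 13 tumours. It was below the tumour in 6 of 6 livers and reached at most 0.262 CPM there. No other member lies beside an antisense gene that shares more than 270 exon bases with it.

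CYP1A1 (ENSG00000140465, chromosome 15, 74719542 to 74725610, minus strand), the target most often used as a readout of the receptor, was barely detected, and what was detected lay in the same organs. All 6 liver samples of the first experiment had 0 counts. Subclone 2 tumours had 9, 2 and 35 counts in mice 1, 2 and 3, and subclone 13 tumours had 3, 1 and 23. Subclone 2 lung had 15, 3 and 0 counts and subclone 13 lung 1, 0 and 0. As for CYP1B1, the tumours of mouse 3 held the most.

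CYP1A1 levels summed over mice were divided by the level of 3 counts, which a count of 0 still allows over a liver group. Tumours against liver gave 29.2-fold in subclone 2 and 9.26-fold in subclone 13, and lung against liver gave 11.2-fold in subclone 2. These ratios allow for counting error in liver alone, and not for that in tumour or lung or for the spread between mice. They also depend on single libraries. Without mouse 3 the ratio was 17.5-fold for subclone 2 tumours (11 counts) and 1.89-fold for subclone 13 tumours (4 counts). Without mouse 1 subclone 2 lung had 3 counts, for which no ratio was formed. Leaving out mice here was chosen after seeing the data. A ratio was not formed for subclone 13 lung, which lay under that limit. The 46 counts over subclone 2 tumours came from 74.2 M counts, so this gene stood at 0.620 CPM in the group where it was highest. CYP1A1 entered the tests through a few tumour and lung samples (15, 23 and 35 counts in the highest), and it passed no edgeR test made on it.

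AHR (ENSG00000106546, chromosome 7, 16916359 to 17346152, plus strand), the receptor itself, was well expressed in every sample. Its level was 196, 220 and 251 CPM in subclone 2 tumours of mice 1, 2 and 3, 123, 177 and 187 CPM in lung and 84.9, 244 and 192 CPM in liver. In subclone 13 it was 213, 175 and 195 CPM in tumours, 174, 251 and 233 CPM in lung and 95.2, 176 and 165 CPM in liver. Both livers of mouse 1 were the lowest samples, and no organ stood apart in both subclones. Of its exon length 29.4% is shared with ENSG00000283321 on the same strand, so reads there may have been left out or split by the counting.

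Lung held less AHR than tumour in 3 of 3 mice for subclone 2 and less in 1 of 3 for subclone 13. The log2 fold change was −0.45 ± 0.32 in subclone 2 (adjusted p = 0.750, edgeR) and 0.17 ± 0.32 in subclone 13 (adjusted p = 1.0, edgeR). For liver against tumour 4 of 6 pairs were lower, and the lowest pair was −1.199 on the log2(CPM + 0.5) scale. In lung the subclone 13 cells held more AHR than those of subclone 2 in 3 of 3 mice (0.43 ± 0.32, adjusted p = 0.966, edgeR).

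ARNT (ENSG00000143437, chromosome 1, 150809705 to 150876768, minus strand), the partner of the receptor and of the hypoxia-inducible factors, had the narrowest range of the members over all samples. It ran from 23.3 to 43.4 CPM over the 18 samples of the first experiment, a range of 1.87 times, against 2.52 times for TIPARP, 2.96 times for AHR and 1044 times for CYP1B1. Subclone 2 had 31.0 ± 5.14 CPM (SD, n = 3) in tumours, 30.8 ± 6.74 CPM in lung and 30.1 ± 9.54 CPM in liver. Subclone 13 had 37.9 ± 5.08 CPM in tumours, 27.7 ± 4.05 CPM in lung and 35.8 ± 4.61 CPM in liver, lower in lung than in tumour in 3 of 3 mice (−0.45 ± 0.25, adjusted p = 0.761, edgeR). Between the mice of a group ARNT was not the steadiest member. In each of the 6 groups AHR or TIPARP had a lower coefficient of variation. In subclone 2 liver it was 31.7% for ARNT and 10.1% for TIPARP.

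TIPARP (ENSG00000163659, chromosome 3, 156673235 to 156706770, plus strand), which encodes the ADP-ribosyltransferase, was the most abundant member. It stood at 252, 211 and 484 CPM in subclone 2 tumours, 269, 213 and 305 CPM in lung and 277, 241 and 294 CPM in liver. In subclone 13 it was 456, 216 and 532 CPM in tumours, 328, 265 and 302 CPM in lung and 292, 294 and 239 CPM in liver. The tumours of mouse 3 were again the highest of their group in both subclones, and organs overlapped. Its coefficient of variation between mice was 46.7% in subclone 2 tumours and 41.1% in subclone 13 tumours, above 90.2% and 89.8% of genes. From tumour to lung it changed by −0.27 ± 0.32 (adjusted p = 0.890, edgeR) and −0.43 ± 0.32 (adjusted p = 0.913, edgeR) on the log2 scale.

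AHRR (ENSG00000063438, chromosome 5, 304176 to 438291, plus strand), the repressor, was expressed at a trace level in every group. Subclone 2 had 1.18, 0.510 and 0.991 CPM in tumours, 0.806, 0.224 and 0.328 CPM in lung and 0.0641, 0.835 and 2.11 CPM in liver. Subclone 13 had 0.842, 1.33 and 1.59 CPM in tumours, 1.28, 1.70 and 2.52 CPM in lung and 1.66, 1.27 and 1.58 CPM in liver. In lung every subclone 13 sample lay above every subclone 2 sample, with a log2 fold change of 2.05 ± 0.88 that did not pass the test (adjusted p = 0.611, edgeR). The difference rests on 4 to 91 counts per sample. How many of all genes separate in this way was not counted, so the order is a description.

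Per exon length, the scale on which genes can be compared, the members differed widely. Median RPKM over the first experiment was 56.4 for TIPARP, 23.5 for AHR, 4.93 for ARNT, 4.06 for CYP1B1, 0.159 for AHRR and 0.00205 for CYP1A1. In subclone 2 tumours CYP1B1 reached a mean of 18.9 ± 14.2 RPKM (SD, n = 3), beside 27.5 ± 3.44 RPKM of AHR. The tumour of mouse 3 alone lay above AHR, with 35.3 against 31.1 RPKM. Mice 1 and 2 had 9.65 and 11.8 RPKM of CYP1B1 beside 24.2 and 27.3 RPKM of AHR. In subclone 2 liver CYP1B1 was 0.233 ± 0.260 RPKM beside 21.5 ± 10.01 RPKM of AHR.

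**Figure D2:**
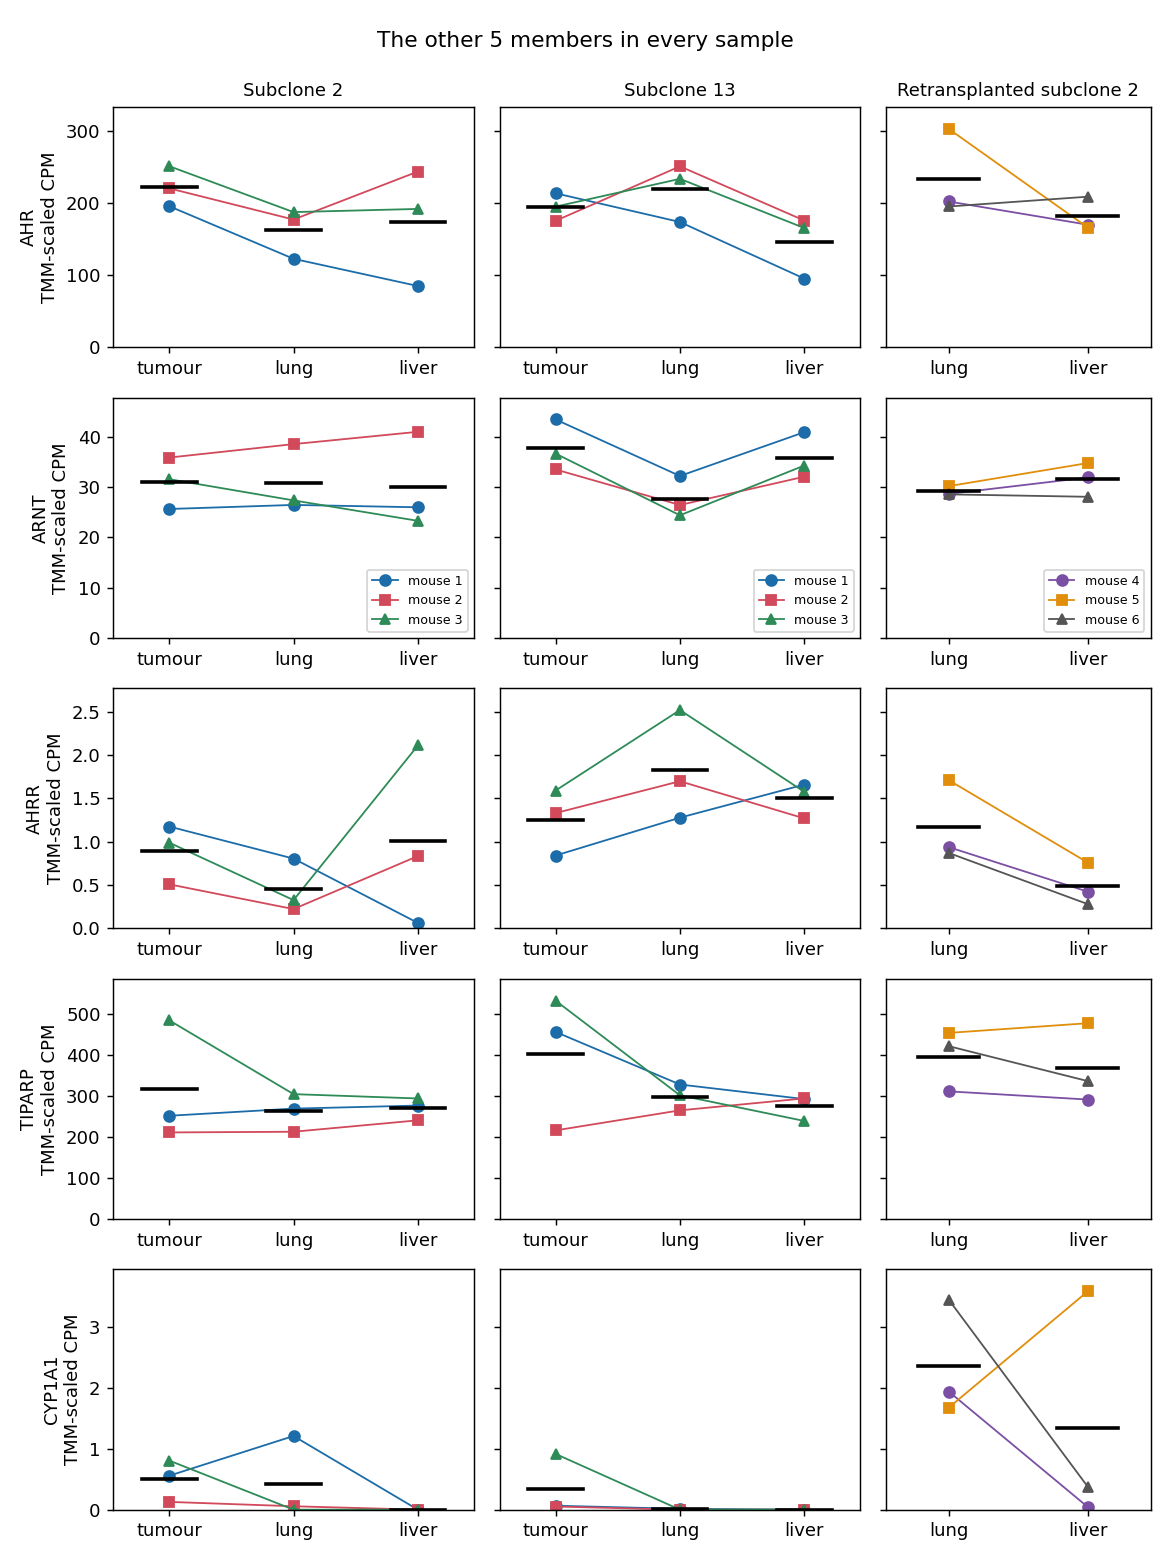
Levels of AHR, ARNT, AHRR, TIPARP and CYP1A1 in TMM-scaled CPM (linear axes from 0) in each sample by organ, with lines joining samples of 1 mouse and black bars at group means. Within a subclone the organs overlap for TIPARP. They also overlap for AHR, except lung and tumour of subclone 2, and for ARNT, except lung and tumour of subclone 13. CYP1A1 has 0 counts in all 6 livers of the first experiment but up to 3.59 CPM after retransplantation.

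The 6 retransplanted samples did not show the low liver level of CYP1B1. Its level in liver was 22.2, 181 and 26.0 CPM in mice 4, 5 and 6, and in lung 76.0, 84.0 and 88.8 CPM. Every retransplanted liver lay above every liver of the first experiment, which reached at most 3.20 CPM on its own scaling. Lung was 3.43 times liver in mouse 4 and 3.42 times in mouse 6, while in mouse 5 liver was 2.16 times lung. The groups overlapped because of the liver of mouse 5, the highest of all 6 samples.

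Lung against liver in the retransplanted cells gave a log2 fold change of 0.12 ± 0.71 for CYP1B1 (adjusted p = 0.966, edgeR, n = 3 mice) and 0.87 ± 0.56 with the replicate block (adjusted p = 0.479). Without the liver of mouse 5 it was 1.77 ± 0.17 and passed (adjusted p = 0.0135, edgeR, 2 livers against 3 lungs), and without both samples of mouse 5 it was 1.77 ± 0.20 and did not pass (adjusted p = 0.0631). Leaving out the liver of mouse 4 or of mouse 6 turned it to −0.32 and −0.28. The value therefore depends on single livers. Fits without 1 sample or 1 mouse called 0 to 16 of all genes. With all 6 samples none of the 6 members was called, in a comparison that called 0.0% of 17549 genes without the block and 0.479% with it. DESeq2 called 2.26% of genes there and none of the members.

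Set beside subclone 2 of the first experiment, the log2 fold change of CYP1B1 between lung and liver differed by a fitted −4.23 ± 1.11 after retransplantation (retransplanted minus first), and by −2.61 ± 0.93 without the retransplanted liver of mouse 5. This is a description with no test, since the gene was chosen for its large difference in the first experiment and a smaller one elsewhere can follow from such a choice alone. The experiments differ in mice, sequencing run and transplantation round, which cannot be told apart.

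CYP1A1 followed CYP1B1 across the retransplanted samples. It had 1, 118 and 12 counts in liver of mice 4, 5 and 6 (0.0424, 3.59 and 0.374 CPM) and 62, 45 and 91 counts in lung (1.94, 1.67 and 3.45 CPM). Liver of mouse 5 was again above its lung, and the other livers far below theirs. The log2 fold change of lung against liver was 0.79 ± 1.03 (adjusted p = 0.790, edgeR) and without the liver of mouse 5 it was 3.35 ± 0.68, which did not pass either. Both P450 genes thus had the same order of lung and liver in 3 of 3 mice.

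Among the regulators, AHRR was higher in lung than in liver in 3 of 3 retransplanted mice, with 0.939, 1.71 and 0.872 CPM against 0.424, 0.760 and 0.281 CPM (1.25 ± 0.48, adjusted p = 0.343, edgeR). AHR was 202, 303 and 195 CPM in lung and 170, 166 and 209 CPM in liver (0.36 ± 0.22, adjusted p = 0.534, edgeR). TIPARP was 311, 454 and 421 CPM in lung and 291, 477 and 336 CPM in liver, with mouse 5 the highest in both organs (0.10 ± 0.24, adjusted p = 0.899, edgeR). ARNT stayed within 28.1 to 34.8 CPM over the 6 samples (−0.12 ± 0.16, adjusted p = 0.799, edgeR).

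**Figure D3:**
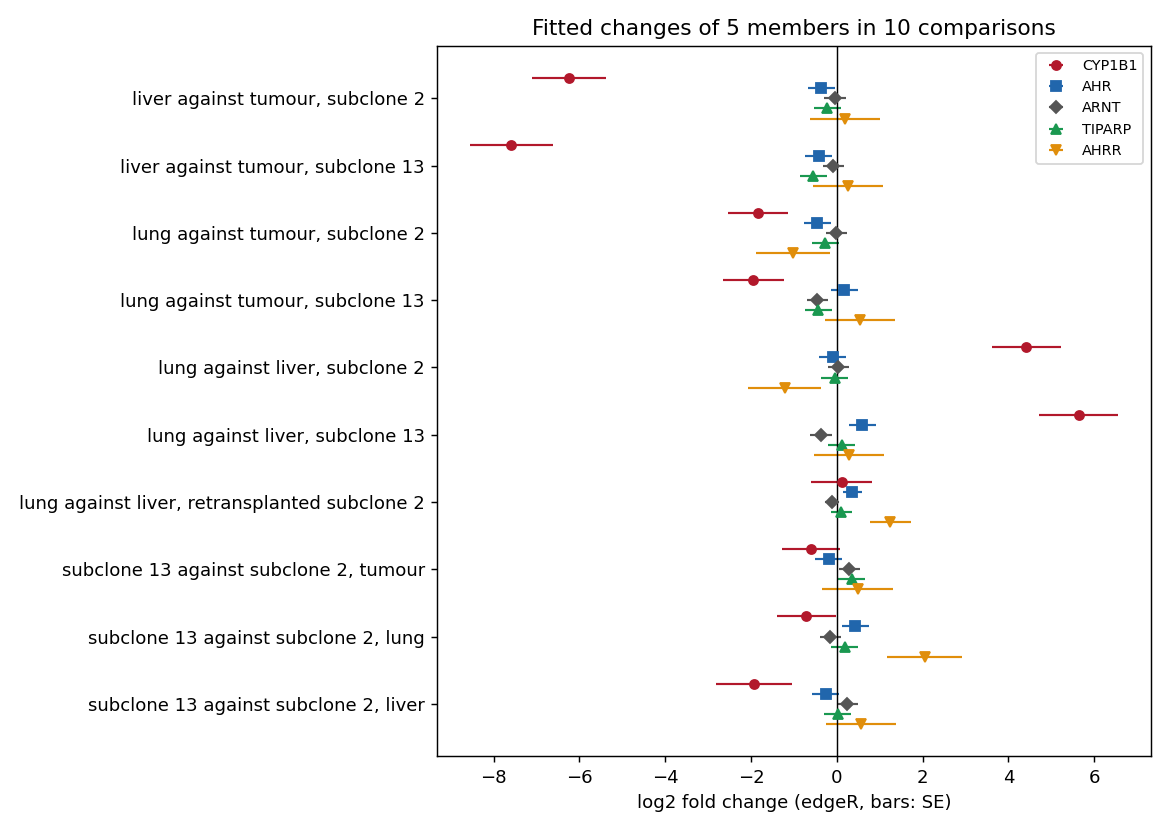
Log2 fold changes (points) with SE (bars) of 5 members in 10 comparisons fitted with edgeR without a mouse term, CYP1A1 being left out for its zero counts. CYP1B1 lies far from 0 in the 4 comparisons with liver of the first experiment, by which it was chosen, and at 0.12 after retransplantation, while AHR, ARNT and TIPARP lie within 1 of 0 throughout.

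Across samples the antisense transcript followed CYP1B1 closely in both experiments, and CYP1A1 did so most clearly in the retransplanted samples. The correlation of log2(CPM + 0.5) with CYP1B1 over the 18 samples of the first experiment was 0.81 for CYP1B1-AS1, 0.56 for CYP1A1, 0.52 for AHR, 0.36 for TIPARP, 0.09 for ARNT and −0.14 for AHRR. With the mean of each mouse removed it was 0.60 for AHR and 0.59 for CYP1A1. Over the 6 retransplanted samples it was 0.93 for CYP1B1-AS1, 0.95 for CYP1A1, 0.80 for TIPARP, 0.66 for AHRR, 0.38 for ARNT and 0.05 for AHR. By rank (Spearman) instead, the 18 samples gave 0.87 for CYP1B1-AS1 and 0.76 for CYP1A1, which had 0 counts in 9 of them. The other members had 0.51 (AHR), 0.22 (TIPARP), 0.15 (ARNT) and −0.31 (AHRR). These values are descriptions: the samples share mice, organs and runs, and the organ groups alone set much of the first series of values.

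Of 11646 genes with a mean of at least 5 CPM, the 8 most like CYP1B1 over the 18 samples by Pearson correlation were INSIG1 (0.94), PDGFA (0.90), PLK2 (0.90), RELB (0.89), ZNF304 (0.88), NFATC1 (0.88), NFE2L2 (0.88) and SQLE (0.88), beside a median over all these genes of −0.05. INSIG1 retains the sterol sensor in the endoplasmic reticulum and SQLE encodes squalene epoxidase of sterol synthesis. PDGFA encodes a growth factor chain, RELB an NF-κB subunit and NFE2L2 the oxidative stress factor NRF2. INSIG1 was 343 ± 137 CPM in tumours, 252 ± 82.2 CPM in lung and 126 ± 49.4 CPM in liver of subclone 2 (SD, n = 3), and 406 ± 192, 233 ± 25.7 and 118 ± 11.6 CPM in subclone 13. The order of organs was that of CYP1B1, over a far smaller range.

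The genes most unlike CYP1B1 were HILPDA (−0.93), a hypoxia-inducible lipid droplet protein, NET1 (−0.84), DDIT4 (−0.82), a stress-induced inhibitor of mTORC1, and PAQR8 (−0.82). HILPDA was 8.98 ± 0.776 CPM in tumours and 28.96 ± 5.29 CPM in liver of subclone 2 (SD, n = 3), and 11.8 ± 4.09 and 31.4 ± 11.4 CPM in subclone 13. Only 3 of the 8 nearest genes were also among the nearest 8 by Spearman correlation, and 4 were among them after the mean of each mouse was removed. Over the 6 retransplanted samples, which the ranking did not use, the correlation stayed high for NFATC1 (0.96) and NFE2L2 (0.79), was 0.54 for RELB and 0.09 for INSIG1, and was −0.46 for PDGFA. For HILPDA it was 0.01.

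**Figure D4:**
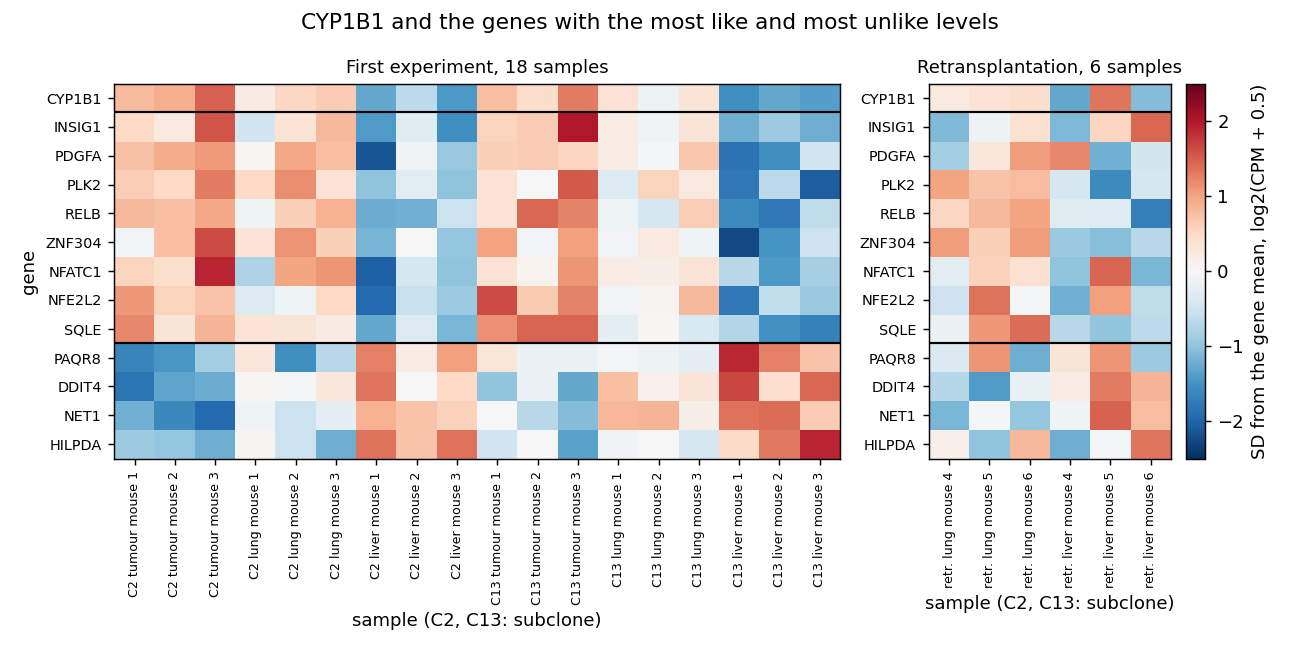
Heat map of log2(CPM + 0.5), in SD from the mean of each gene within an experiment, for CYP1B1 (top row), the 8 genes most like it and the 4 most unlike it (bottom rows) in 18 samples of the first experiment and 6 retransplanted samples. Liver columns of the first experiment are blue for CYP1B1 and its nearest genes and red for the bottom rows, and in the retransplanted samples only some rows, such as NFATC1 with a correlation of 0.96, keep the pattern of CYP1B1.

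Other genes of the pathway were taken from 7 lists of 65 genes: receptor chaperones, other bHLH-PAS factors, coactivators and partners, further genes of xenobiotic metabolism, further genes induced through the receptor, oestrogen metabolism and the kynurenine branch of tryptophan metabolism, which makes receptor ligands. Of these, 47 passed the filter on low counts in the first experiment. The lists were set with earlier results of these data known. Adjusted p-values of list genes, here and below, are therefore descriptions and no independent support. RELB and NFE2L2 are also among the 8 genes most like CYP1B1 named above. RELB, an NF-κB subunit that can pair with the receptor, was the only list gene called by edgeR without the mouse term. It fell in liver against tumour of subclone 13, from 76.2 ± 21.2 to 22.002 ± 7.85 CPM (SD, n = 3; −1.79 ± 0.30, adjusted p = 0.00866, edgeR). In subclone 2 it was 68.0 ± 4.19 CPM in tumours and 25.9 ± 5.73 CPM in liver (−1.39 ± 0.30, adjusted p = 0.0599, edgeR).

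With the mouse as a replicate block, 4 of 47 fell and none rose between tumour and liver in each subclone, in fits that called 1.68% of all genes in subclone 2 and 1.83% in subclone 13. RELB, NFE2L2 and IL6, a cytokine gene that the receptor can induce, were called in both, with SLC7A5, an amino acid transporter that also carries kynurenine, in subclone 2 and EPAS1, the hypoxia factor HIF-2α, in subclone 13. NFE2L2 changed by −0.73 ± 0.18 (adjusted p = 0.0431, edgeR with block) in subclone 2 and −0.87 ± 0.18 (adjusted p = 0.0125) in subclone 13. IL6 changed by −1.52 ± 0.31 (edgeR adjusted p = 0.0123) and −1.28 ± 0.31 (adjusted p = 0.0351). The median of the 47 genes without the mouse term was −0.08 in subclone 2 and −0.16 in subclone 13, beside 0.05 and 0.02 over all genes.

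Between tumour and lung the block fit called the acetyltransferases and receptor coactivators CREBBP and EP300 lower in both subclones. CREBBP changed by −0.98 ± 0.19 (adjusted p = 0.00797, edgeR with block) in subclone 2 and −0.90 ± 0.19 (adjusted p = 0.0145) in subclone 13, and EP300 by −0.82 ± 0.21 (adjusted p = 0.0373) and −0.90 ± 0.21 (adjusted p = 0.0227). In fits that called 3.05% of all genes in subclone 2 and 2.89% in subclone 13, 1 of 47 rose and 3 fell in subclone 2, the others being ALDH3A1, an aldehyde dehydrogenase of the receptor's gene battery, which rose by 3.14 ± 0.73 (edgeR adjusted p = 0.0222), and the coactivator NCOA3. In subclone 13 none rose and 5 fell, the others being EPAS1, STS and POR, the electron donor of P450 enzymes. Without the mouse term none of these passed in edgeR. DESeq2, also without it, called CREBBP and ALDH3A1 in subclone 2 (2 of 47, beside 2.08% of all genes) and CREBBP, EP300, EPAS1 and ALDH3A1 in subclone 13 (4 of 47, beside 1.85%).

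Lung against liver with the block called IL6, ARNT2 and RELB higher and STS lower in subclone 2, and RELB higher in subclone 13, where 2.95% and 0.276% of all genes were called. POR was the only list gene called between the subclones with the block, lower in subclone 13 lung (−0.84 ± 0.21, adjusted p = 0.0476, edgeR), where 1.54% of genes were. In the retransplanted samples IL6 was the only list gene called with the block, higher in lung (1.65 ± 0.23, adjusted p = 0.0372, edgeR), and none was called without it (DESeq2 called 4 of 47, beside 2.26% of all genes, and 7 lay under 0.05 before adjustment). The 6 tested genes of the induced list were all higher in lung than in liver in both subclones of the first experiment, with medians of 1.15 and 0.48, and 5 of 6 after retransplantation with a median of 0.84, beside medians over all genes of 0.01, 0.01 and −0.03. The first-experiment comparisons share samples, and the lists were set with results known, so this count is a description.

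Markers of cells that a sort from mouse organs could carry along were read in the same samples. The 9 fibroblast and smooth muscle markers summed to 77.7 to 167 CPM in tumours, 38.6 to 116 CPM in lung and 27.4 to 58.4 CPM in liver of subclone 2, an order shared with CYP1B1, and to 85.2 to 191, 59.8 to 102 and 59.8 to 123 CPM in subclone 13. COL1A1 ran from 7.76 to 111 CPM, PDGFRB from 5.24 to 36.8 CPM and TAGLN from 3.98 to 32.2 CPM, while DCN reached at most 0.392 CPM, PDGFRA 0.889 CPM and LUM 2.62 CPM in any sample of the first experiment. The 6 endothelial markers summed to 12.5 to 47.8 CPM over the first experiment. The hepatocyte markers measured (6 genes) summed to 60.1 to 72.6 CPM in tumours, 32.5 to 93.8 CPM in lung and 30.5 to 60.2 CPM in liver of subclone 2, and to 141 to 242, 95.1 to 109.9 and 172 to 222 CPM in subclone 13. SERPINA1 ran from 24.9 to 212 CPM over the first experiment, with APOA1 up to 23.8 CPM and CYP2E1 up to 11.9 CPM, while ALB reached at most 0.806 CPM and FGB 0.0512 CPM. After retransplantation the hepatocyte markers (7 genes) summed to 41.5 to 77.4 CPM in liver and 16.7 to 29.5 CPM in lung, with ALB at most 0.170 CPM. The fibroblast and smooth muscle markers summed there to 33.4 to 78.0 CPM in liver and 55.5 to 101 CPM in lung. Leukocyte markers summed to at most 18.2 CPM and lung epithelium markers to at most 13.5 CPM in any sample. The part of such cells in the CYP1B1 levels was not tested.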

How the data were processed

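RNA-seq of MDA-MB-231 cells sorted from mouse organs was analysed in 30 libraries. The deposited values are unnormalized read counts per Ensembl gene, in 1 table for each experiment. Per the submitters' processing notes, bcl2fastq 2.15.0.4, cutadapt, STAR and featureCounts were used with GRCh38. Per the labels' protocols, the library kit was TruSeq RNA v2, which does not keep the strand. The 3 libraries of subclone 13 from mouse 1 were summed per organ, giving 18 and 6 samples. Symbols were found for 40625 of 40950 identifiers, and GENCODE 29 gave coordinates and exon lengths.

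Genes were filtered with filterByExpr (count 10, total 15), scaled by TMM and tested in edgeR 4.0.16 (quasi-likelihood F test, R 4.3.3), with Benjamini-Hochberg adjustment over 17418, 17549 or, for both experiments together, 19721 genes (threshold 0.05). SE is the absolute log2 fold change over the square root of F. The procedure was tested on simulated data. The main model had no mouse term. Samples of 1 mouse deviated together from their group means in the first experiment (median correlation 0.33 over 45 pairs, lowest 0.14) and in the retransplantation (0.30 over 3 pairs). The −0.23 over 90 pairs of different mice in the first experiment adds no separate support. Removing group means pushes such values below 0 where those of 1 mouse lie above it. Mouse numbers, which come from the labels, were taken to pair the samples, though mouse and run cannot be told apart in the first experiment. Alternatives were a mouse block, DESeq2 1.42.0, RLE scaling, no filter, the compared groups alone, single technical libraries, and leaving out each sample or mouse.

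All 6 members, CYP1B1-AS1 and list genes called by edgeR with or without the mouse block are named. List genes called by DESeq2 alone are named only in part. The 8 genes most like and 4 most unlike CYP1B1 were named by rank. Members and lists were chosen with earlier results of these data known. UGT1A1, UGT1A6 and SULT1E1 were not analysed here.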

Additional observations from a re-analysis of the deposited data

How the results depend on the processing

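With the mouse as a replicate block, no call of a member changed in the tested comparisons. CYP1B1 then differed by −1.72 and −1.73 between lung and tumour and by 0.87 between retransplanted lung and liver, while counts of genes called rose (76 to 532 and 73 to 503 for lung against tumour, 50 to 292 and 67 to 318 for liver against tumour, 4 to 514 and 0 to 48 for lung against liver, in subclones 2 and 13, 0 to 84 after retransplantation, and 19 to 88, 32 to 269 and 43 to 262 between the subclones in tumour, lung and liver). For the organ comparisons alone, in the order given, DESeq2 called 363, 323, 243, 246, 253, 53 and 397 genes. Its counts between the subclones are not given here. Without the filter on low counts CYP1B1 passed at −1.87 (lung against tumour, subclone 2), −1.98 (subclone 13) and −1.92 (subclone 13 against 2 in liver). Counts of genes called in those unfiltered fits are not given here. ARNT turned to 0.0078 with DESeq2 and 0.0053 with RLE (lung against tumour, subclone 2), and TIPARP to −0.041 with technical library 3 alone (subclones in liver). The cause was not tested.

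Leaving out single samples or mice, CYP1B1 ran from −2.15 to −1.02 in subclone 2 and −2.37 to −1.05 in subclone 13 (lung against tumour), and in subclone 2 from −8.19 to −5.00 (liver against tumour) and 3.66 to 6.10 (lung against liver). Its subclone difference ran from −1.47 to 0.23 in tumours, and the differences between subclones ran from −0.94 to 0.79 (lung against tumour), −2.14 to 0.35 (liver against tumour) and −0.46 to 1.86 (lung against liver), the last 2 turning without subclone 2 liver of mouse 2. Retransplanted lung against liver ran from −0.33 to 1.77 for CYP1B1, −0.014 to 3.57 for CYP1A1 and −0.039 to 0.32 for TIPARP. AHR ran from −0.016 to 0.39 (lung against tumour, subclone 13) and −0.63 to 0.072 (subclones, liver), AHRR from −0.059 to 1.65 (subclones, liver), ARNT from −0.21 to 0.099 (lung against tumour, subclone 2) and −0.36 to 0.095 (subclones, lung), and TIPARP from −0.50 to 0.17 (lung against tumour, subclone 2) and −0.10 to 0.15 (subclones, liver). Depth limits CYP1A1, AHRR and the liver levels of CYP1B1, which rest on few counts.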
